A study of Mus musculus with 12 samples.

Results

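The genes of the H3K4 methyltransferase complexes were followed here in 2 mouse mutants: Kmt2a, Kmt2b, Kmt2c, Kmt2d, Setd1a, Setd1b, Wdr5, Rbbp5, Ash2l and Dpy30. The list was drawn up with earlier results of these data known, its rows were then picked by gene symbol with no measured value, and all 10 were found in both deposited tables, which held 51826 entries for sperm and 23502 for testes. The study addressed how the transcriptional regulators XAP5 and XAP5L, encoded by Fam50a and Fam50b, act during spermatogenesis. RNA-seq covered 4 groups of 3 biological replicates on the C57BL/6J background. The first pair was cauda epididymal sperm of P56 WT mice and of mice with a global CRISPR/Cas9 knockout of Xap5l (Xap5l KO). The second pair was whole testes of P16 WT mice and of mice in which a floxed Xap5 allele was deleted by Stra8-GFPCre, a knockin that drives Cre in male germ cells (Xap5 cKO). That Cre is not driven in the somatic cells of the testis. The study names Xap5 fl/Y males as controls of its cKO mice, and whether the sequenced libraries labelled WT came from such males was not given in the sources used here.

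Methylation of histone H3 at lysine 4 (H3K4) marks active promoters in its trimethylated form and enhancers in its monomethylated form. It is laid down by large complexes related to yeast COMPASS, each built from a catalytic SET domain subunit and a shared core. KMT2A and KMT2B form the MLL-type complexes, KMT2C and KMT2D the complexes that act mainly at enhancers, and SETD1A and SETD1B the SET1 complexes. WDR5, RBBP5, ASH2L and DPY30 make up the core, on which the methyltransferase activity depends. In male germ cells, Kmt2b is known to be needed in spermatogonia, and PRDM9 places H3K4 trimethylation at meiotic recombination hotspots outside these complexes.

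In GRCm38 the genes of the catalytic subunits lie on chromosome 9 from 44803355 to 44881296 (Kmt2a), on chromosome 7 from 30568858 to 30588726 (Kmt2b), on chromosome 5 from 25271798 to 25498783 (Kmt2c), on chromosome 15 from 98831669 to 98871204 (Kmt2d), on chromosome 7 from 127776670 to 127800122 (Setd1a) and on chromosome 5 from 123142193 to 123168629 (Setd1b). Those of the core lie on chromosome 2 from 27515157 to 27536535 (Wdr5), on chromosome 1 from 132477365 to 132505659 (Rbbp5), on chromosome 8 from 25815996 to 25847694 (Ash2l) and on chromosome 17 from 74299474 to 74323944 (Dpy30). Setd1a shares 51.8% of its exonic bases with Gm49388 on the same strand, a gene with no entry in either table. The counts of Setd1a are therefore uncertain, and no correction was made for this. Kmt2a shares 2.27% and Kmt2c 1.35% of their exonic bases with genes on the other strand, from which reads cannot be told apart without strand, and the same holds for 9.5% of Psip1 and 8.21% of Zcwpw1, which are no members. RefSeq promoter windows of 300 bases in GRCm38.p6 were matched for 7 of the 10 members, and none was printed for Kmt2b, Setd1b and Ash2l. They were searched on both strands for CCCCGCCC, a GC-rich motif of the kind that the study names for its factors, or its reverse complement GGGCGGGG. It occurred in 17.6% of all 32851 such windows, and 19.6% of the 27025 genes with windows had a match in any of theirs. The upstream 250 bases are shown for the member with most matches (Kmt2c), for another member with a match (Kmt2a) and for 2 members that fell in Xap5 cKO testes and had none (Wdr5 and Setd1a). Capitals mark the motif, each sequence is read 5′ to 3′ on the strand of its gene, and the last base lies next to the transcript start that RefSeq gives for the window. For Kmt2a, Wdr5 and Setd1a that start is not at the edge of the gene given above, and for Setd1a the printed run lies inside the gene.
Kmt2c, chr5:25498784-25499033, minus strand: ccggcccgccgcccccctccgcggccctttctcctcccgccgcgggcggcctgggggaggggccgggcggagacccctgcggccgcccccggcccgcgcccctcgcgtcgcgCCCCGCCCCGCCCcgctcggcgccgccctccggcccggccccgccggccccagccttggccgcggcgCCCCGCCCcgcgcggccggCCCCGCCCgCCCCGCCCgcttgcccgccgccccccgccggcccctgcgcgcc
Kmt2a, chr9:44881290-44881539, minus strand: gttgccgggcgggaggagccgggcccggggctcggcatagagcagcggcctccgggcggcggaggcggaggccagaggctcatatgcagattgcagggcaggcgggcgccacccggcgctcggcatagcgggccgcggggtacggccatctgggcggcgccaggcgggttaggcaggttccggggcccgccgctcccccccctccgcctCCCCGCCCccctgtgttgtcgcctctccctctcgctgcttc
Wdr5, chr2:27514897-27515146, plus strand: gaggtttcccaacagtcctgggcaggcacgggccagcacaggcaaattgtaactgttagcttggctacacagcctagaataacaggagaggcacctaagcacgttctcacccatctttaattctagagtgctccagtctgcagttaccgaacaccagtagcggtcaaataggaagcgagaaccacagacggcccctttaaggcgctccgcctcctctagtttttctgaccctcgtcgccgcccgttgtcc
Setd1a, chr7:127777139-127777388, plus strand: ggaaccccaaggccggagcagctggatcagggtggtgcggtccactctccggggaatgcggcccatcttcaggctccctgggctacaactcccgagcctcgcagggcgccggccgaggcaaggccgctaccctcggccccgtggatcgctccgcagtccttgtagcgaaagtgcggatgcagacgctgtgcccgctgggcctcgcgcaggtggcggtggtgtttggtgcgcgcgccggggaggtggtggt
The Kmt2c window, with 88% G and C, held 5 matches, of which the first and second overlap. The Kmt2a window held 2, of which 1 lies downstream of the start and is not in the printed run. Among the 4 windows of Dpy30 1 held a match, and the windows of Rbbp5, Wdr5, Setd1a and Kmt2d held none. A match is a description of the letters and not of a binding site.

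Library totals ranged from 38881197 to 52308452 counts in sperm and from 32251198 to 36759054 in testes. Reads of Fam50b numbered 574, 440 and 419 in the WT sperm libraries, against 18, 23 and 8 after knockout. For Fam50a the counts were 819, 811 and 988 in WT testes, against 673, 616 and 651 after conditional knockout (log2 fold change -0.33, adjusted p = 0.0495, edgeR quasi-likelihood test with Benjamini-Hochberg adjustment). This call was lost in 11 alternatives, with an adjusted p of up to 0.170. Fam50b also fell in Xap5 cKO testes, from 532, 539 and 197 counts in WT to 6, 0 and 7. The cell type labels were checked with marker genes. Elongating spermatid markers summed to between 22957 and 47609 CPM (counts scaled to library size after TMM normalization) in WT sperm, but WT sperm also held epididymal epithelium markers at 5919 to 8041 CPM and leukocyte markers at 829.9 to 959 CPM. The epididymal sum in WT sperm was mostly Crisp1 (mean 6199 CPM), followed by Adam7 (679.7) and Aqp9 (59.5). The other markers of that list were low, with Defb20 at 1.86, Rnase10 at 1.16 and Lcn8 at 0.131 CPM and no counts of Lcn5. In testes the elongating spermatid markers stayed under 1 CPM in sum and Prm2 had no counts.

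In Xap5 cKO testes, 3 of the 4 core subunit genes fell, 1 SET1 catalytic gene fell and the other rose. Ash2l had the largest change, to 0.591 of the WT level, and Setd1b rose 1.50-fold, while none of the 10 members reached a 2-fold change. In all, 1 member rose, 4 fell and 5 stayed short of the threshold (adjusted p under 0.05, edgeR quasi-likelihood test with Benjamini-Hochberg adjustment over 16821 genes). Across all genes tested, 25.0% rose and 28.1% fell, 53.1% together, so the share of members that passed was close to that of all genes. With the added fold change above 2, 4.15% of all genes were called higher and 10.9% lower, 15.1% together. The groups did not overlap for 6 of the 10 members, against 62.3% of all genes. The median log2 fold change was -0.08 over the members and -0.01 over all genes.

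Among the core subunits, Ash2l, whose product stimulates the SET domain together with RBBP5, stood at 182, 178 and 153 CPM in WT testes and at 95.8, 102 and 106 CPM in Xap5 cKO testes. All cKO libraries lay below all WT libraries, and WT replicate 3 was the nearest to them. That library stood apart from the other WT testes, with pachytene spermatocyte markers at 1081 CPM against 2277 and 2191, and without it the log2 fold change of Ash2l was -0.83. The mean went from 171 ± 15.7 to 101 ± 4.90 CPM (SD, n = 3), or -0.76 on the log2 scale (standard error 0.0796, adjusted p = 7.55e-05, edgeR quasi-likelihood test). Wdr5, which encodes the WD-repeat scaffold that holds the catalytic subunit, stood at 182, 180.2 and 185 CPM in WT and at 145, 148 and 138 CPM in cKO. The groups were apart by far more than the spread within either, and the level fell by 0.35 on the log2 scale (standard error 0.0557, adjusted p = 0.000762, same test). Dpy30, whose product binds ASH2L, had the lowest CPM of the core genes, with 24.2, 23.9 and 29.5 CPM in WT and 17.3, 20.7 and 18.6 CPM in cKO. The groups did not overlap and the level fell by 0.45 (standard error 0.132, adjusted p = 0.0171). This call was lost without Xap5 cKO replicate 1, with a log2 fold change of -0.39 and an adjusted p of 0.0694 from the same edgeR test. Rbbp5, the fourth core gene, did not pass, with 56.8, 61.7 and 68.0 CPM in WT and 69.3, 71.4 and 66.5 CPM in cKO (log2 fold change 0.15, standard error 0.0863, adjusted p = 0.168). Its cKO libraries overlapped only with WT replicate 3, and without that library it passed at a log2 fold change of 0.22 and an adjusted p of 0.0461 from edgeR. Summed over the 4 core genes, the WT libraries stood at 445, 444 and 435 CPM and the cKO libraries at 327, 342 and 329 CPM, so the core sums did not overlap. Wdr5 and Ash2l made up most of this sum, with WT means of 182 and 171 CPM. Sums without overlap were not particular to the core. In these testes they were also found for each further gene list followed below, lower in cKO except for the readers of methylated H3K4.

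The 2 SET1 genes moved in opposite directions. Setd1a stood at 215, 241 and 217 CPM in WT testes and at 184, 187 and 170.5 CPM in Xap5 cKO testes, with no overlap. It fell by 0.31 on the log2 scale (standard error 0.0669, adjusted p = 0.00359, edgeR quasi-likelihood test). The overlap with Gm49388 given above leaves these counts of Setd1a uncertain. Setd1b, at 42.5, 46.6 and 42.6 CPM in WT and 68.0, 60.4 and 69.7 CPM in cKO, was higher in every cKO library than in any WT library. Its log2 fold change was 0.59 (standard error 0.0888, adjusted p = 0.000524, same test), and it passed under every alternative run, as did Setd1a, Wdr5 and Ash2l.

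The 4 KMT2 genes did not pass the test. Kmt2d came nearest, with 212, 238 and 262 CPM in WT testes and 271, 279 and 269 CPM in Xap5 cKO testes. All its cKO libraries lay above all WT libraries (log2 fold change 0.20, standard error 0.0773, adjusted p = 0.0516 from edgeR), and without WT replicate 3 it passed with an adjusted p of 0.00570. Kmt2c, the other catalytic gene of the complexes that act mainly at enhancers, stood at 189 ± 4.16 CPM in WT and 204 ± 12.3 in cKO (log2 fold change 0.11, 95% interval -0.03 to 0.25). Kmt2a, the MLL gene, stood at 136, 165 and 194 CPM in WT and at 164, 154 and 154 CPM in cKO, so that the cKO libraries lay within the WT range (log2 fold change -0.07, 95% interval -0.32 to 0.18). Kmt2b, at 225 ± 19.5 CPM in WT and 209.5 ± 7.96 in cKO, had a log2 fold change of -0.10 (95% interval -0.26 to 0.06). Summed over the 6 catalytic genes, WT libraries stood at 1003, 1126 and 1124 CPM and cKO libraries at 1119, 1075 and 1078 CPM, with overlap.

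**Figure D1:**
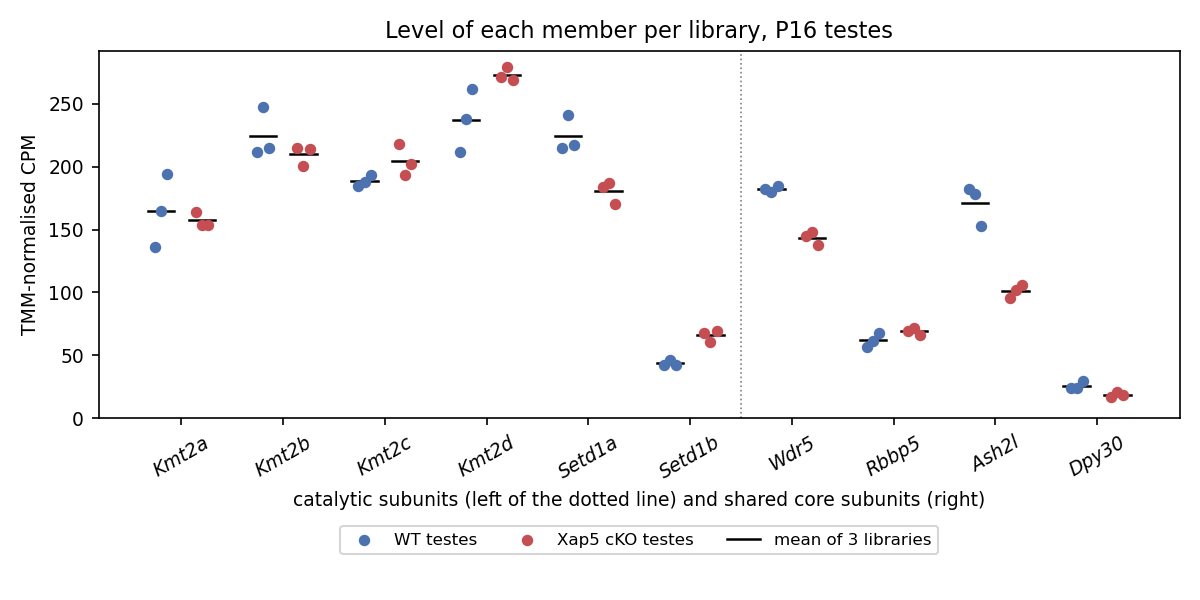
TMM-normalised CPM (vertical axis) of each member in the 3 WT and 3 Xap5 cKO testis libraries, with a point per library and a bar at the mean. Ash2l, Wdr5, Dpy30 and Setd1a lay lower and Setd1b and Kmt2d higher in every cKO library than in any WT library.

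Cell type markers of the testes moved with genotype in the same libraries. Pachytene spermatocyte markers summed to between 1081 and 2277 CPM in WT testes and between 219 and 302 CPM in Xap5 cKO testes, and 7 of 7 fell, led in level by Hspa2, a meiotic chaperone gene (556 to 132 CPM). The 6 leptotene and zygotene markers also fell, from a sum of 679.9 to 812 CPM to one of 410.1 to 577 CPM, and of 7 spermatogonial markers 6 fell and 1 rose (707 to 800.0 CPM in WT, 464 to 500.0 in cKO). All 6 Sertoli cell markers rose, from 1482 to 1539 CPM in WT to 2249.8 to 2321 CPM in cKO, with Amhr2 the most abundant. Leydig cell markers summed to 177 to 302 CPM in WT and 312 to 659 in cKO, with 2 of 5 higher, and leukocyte markers to 77.9 to 113 and 166 to 219 CPM, with 5 of 6 higher. Of 4 peritubular myoid markers 2 rose. The part of these shifts in the members' changes was not tested. In bulk testis RNA alone, fewer cells of a type and less RNA per cell cannot be told apart. By histology, the study found pachytene spermatocytes missing from Xap5 cKO testes at P16 and later. It describes an arrest of the germ cells in meiotic prophase.

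In sperm, none of the 10 members passed the test between Xap5l KO and WT. Ash2l had the largest positive and Rbbp5 the largest negative log2 fold change, and the adjusted p-values of the members ran from 0.0770 to 0.994 (edgeR quasi-likelihood test with Benjamini-Hochberg adjustment over 20945 genes). At an unadjusted p under 0.05, 1 member was higher and none lower, against 18.6% and 14.9% of all genes, 33.5% together. That member was Ash2l, which also was the 1 member that passed with DESeq2. Across all genes tested, 9.02% rose and 3.07% fell, 12.1% together, and with a fold change above 2 these shares were 7.59% and 1.27%, 8.86% together. The groups did not overlap for 2 members, Ash2l and Wdr5, against 38.3% of all genes. The median log2 fold change was -0.06 over the members and -0.08 over all genes.

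Ash2l stood at 21.6, 30.9 and 30.8 CPM in WT sperm and at 44.3, 46.5 and 38.4 CPM in Xap5l KO sperm, so that every KO library was above every WT library. The mean was 27.8 ± 5.33 CPM in WT and 43.0 ± 4.20 in KO (SD, n = 3), or 0.63 on the log2 scale (standard error 0.214, 95% interval 0.15 to 1.11, adjusted p = 0.0770 from edgeR). Over the alternatives its adjusted p ran from 0.0327 with DESeq2 to 0.276, and it also passed without Xap5l KO replicate 3 (adjusted p = 0.0360, log2 fold change 0.79, edgeR). Wdr5 stood at 20.3, 22.5 and 27.1 CPM in WT and at 16.5, 18.7 and 19.0 CPM in KO, below every WT library but with a log2 fold change of -0.37 that did not pass (standard error 0.198, adjusted p = 0.219). Rbbp5, the rarest member in sperm by CPM, stood at 6.92, 13.9 and 12.8 CPM in WT and at 4.40, 7.11 and 9.39 CPM in KO. Its groups overlapped through WT replicate 1, and its log2 fold change of -0.68 had a 95% interval from -1.42 to 0.06. Dpy30 was at 27.3 ± 2.21 CPM in WT and 28.9 ± 6.25 in KO (log2 fold change 0.08, 95% interval -0.40 to 0.57).

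The catalytic genes of sperm overlapped between genotypes without exception among the 6. Kmt2a stood at 24.5, 39.2 and 44.6 CPM in WT sperm and at 17.1, 32.1 and 33.5 CPM in Xap5l KO sperm, and had the lowest log2 fold change of the 6 (-0.39, 95% interval -1.08 to 0.30). Kmt2b stood at 36.0, 39.2 and 50.6 CPM in WT and at 26.8, 43.1 and 40.4 CPM in KO. For both genes the libraries numbered 1 were the lowest of their group. The same held for Kmt2d, at 32.7 CPM in WT and 37.9 in KO, and for Kmt2c, Wdr5, Rbbp5 and Dpy30. Those libraries had TMM factors of 0.821 and 0.808, against 1.08 to 1.12 in the other sperm libraries, and the part of this in the members' spread was not tested. Setd1a and Setd1b had another pattern, in which Xap5l KO replicate 3 stood lowest of all 6 libraries. That library also held less mitochondrial RNA (10.5% of counts against 27.4% and 18.6%) and less of the round spermatid markers (199 CPM against 379 and 333) than the other KO libraries, and their part in the result was not tested. Without it the log2 fold changes of Setd1a and Setd1b were 0.29 and 0.32, and neither passed. Setd1a was at 37.5, 36.6 and 21.8 CPM and Setd1b at 32.9, 33.0 and 15.4 CPM in KO, against 27.5, 31.2 and 37.0 CPM and 23.7, 25.2 and 34.8 CPM in WT. The log2 fold changes were 0.00 for Setd1a (95% interval -0.55 to 0.56), -0.04 for Setd1b (-0.72 to 0.64), -0.01 for Kmt2d (-0.54 to 0.51) and -0.08 for Kmt2c (-0.68 to 0.53). These intervals were wider than those of the same genes in testes. Each of them included the log2 fold changes seen in testes for Setd1a (-0.31) and Wdr5 (-0.35), and no limit of detection was computed.

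**Figure D2:**
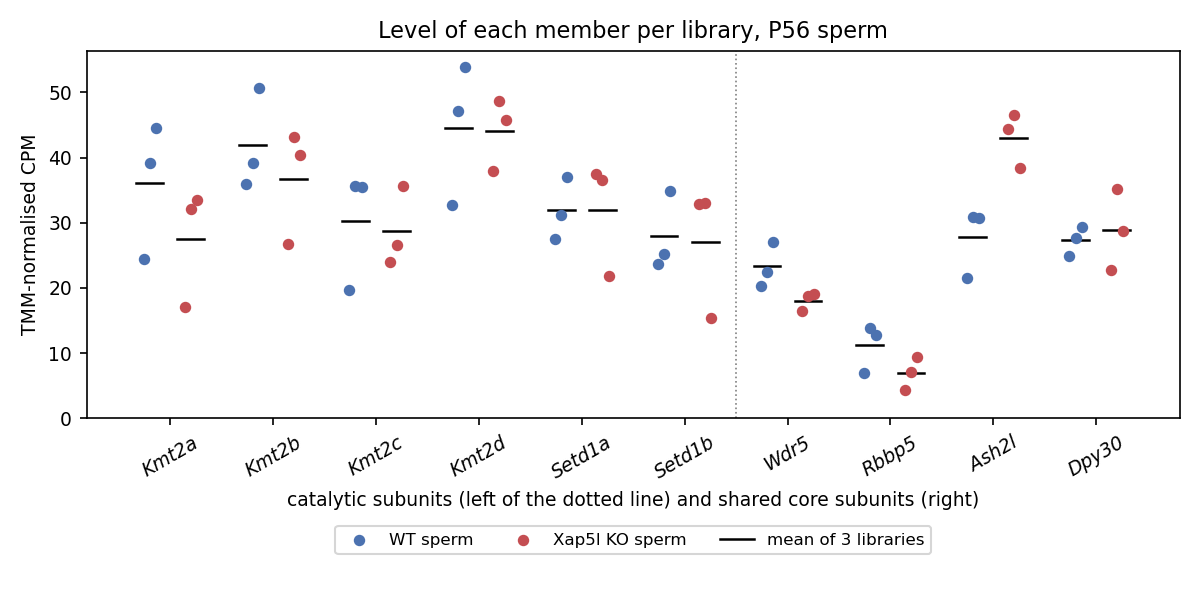
TMM-normalised CPM (vertical axis) of each member in the 3 WT and 3 Xap5l KO sperm libraries, with a point per library and a bar at the mean. Only Ash2l (KO above WT) and Wdr5 (KO below WT) had groups that did not overlap, and neither passed the test.

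Some cell type markers moved with genotype in sperm as well, and whether their RNA came from sperm or from other cells was not tested. Round spermatid markers summed to between 88.4 and 119.8 CPM in WT sperm and between 199 and 379 CPM in Xap5l KO sperm, with 6 of 6 higher and Tssk1 the most abundant. Of 7 pachytene markers 4 rose (sums of 1359 to 2267 and 2722 to 3302 CPM). Of 6 elongating spermatid markers 1 rose, and their sums overlapped (22957 to 47609 CPM in WT, 24701 to 45098 in KO). No spermatogonial marker passed (23.0 to 24.8 CPM in WT, 22.4 to 26.0 in KO). No leptotene and zygotene marker passed either (9.28 to 14.0 CPM in WT, 10.2 to 12.1 in KO). Leukocyte markers summed to 829.9 to 959 CPM in WT and 200.2 to 545 in KO, with 1 of 6 lower. Epididymal epithelium markers, mostly Crisp1, summed to 5919 to 8041 and 4195 to 5834 CPM, with none of the 5 tested passing. The 10 members together summed to 238, 312 and 356 CPM in WT and to 264, 328 and 288 CPM in KO, so their sums overlapped between genotypes. The part of other cells in the members' levels was not tested.

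**Figure D3:**
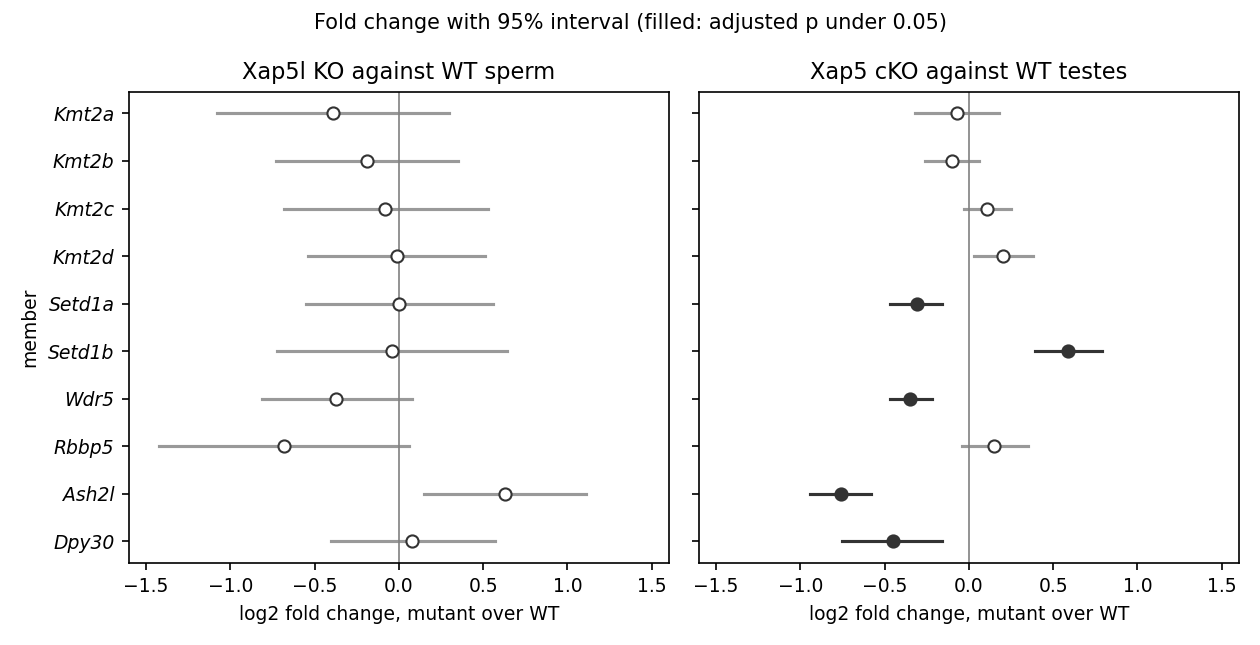
Log2 fold change of each member (horizontal axis, points) with its 95% interval (lines) in Xap5l KO against WT sperm and in Xap5 cKO against WT testes, filled where the adjusted p was under 0.05. The 5 filled points are all in testes, and Ash2l lies at 0.63 in sperm and at -0.76 in testes.

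Side by side, the values of Ash2l had opposite signs in the 2 comparisons (0.63 in sperm and -0.76 in testes), while those of Wdr5 had the same sign (-0.37 and -0.35). For Rbbp5 they were -0.68 and 0.15, and for Dpy30 0.08 and -0.45. The comparisons concern different genes, ages and tissues and share no libraries, and the differences between them were not tested.

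To set members against each other, CPM was divided by the length of all annotated exons in kilobases. In WT testes Wdr5 was highest at 50.7 ± 0.613 CPM per kilobase (SD, n = 3), followed by Setd1a at 33.0 ± 2.14, Kmt2b at 23.4 ± 2.03 and Dpy30 at 22.6 ± 2.75. Kmt2b and Dpy30 overlapped, as did Ash2l (19.1 ± 1.75) and Rbbp5 (15.8 ± 1.44). Kmt2d, Kmt2a and Kmt2c followed at 11.9, 9.90 and 9.31 CPM per kilobase, of which Kmt2a overlapped with both of the others. Setd1b was lowest at 3.64 ± 0.194, and 4 of the 9 neighbouring pairs overlapped. In Xap5 cKO testes Wdr5 (39.9 CPM per kilobase), Setd1a (26.6) and Kmt2b (21.8) kept the top ranks and Setd1b (5.48) the lowest, while Ash2l stood at rank 7 with 11.3 CPM per kilobase and overlapped with Kmt2c (10.1). The highest level was 13.9 times the lowest in WT and 7.29 times in cKO. By these counts Setd1a was several times as abundant per length as its paralog Setd1b in both genotypes. The level and rank of Setd1a are uncertain through its overlap with Gm49388.

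In WT sperm Dpy30 was highest, at 23.8 ± 1.93 CPM per kilobase, and no library of any other member reached it. Wdr5 (6.48), Setd1a (4.69) and Kmt2b (4.37) came next, and Kmt2c was lowest at 1.49. In Xap5l KO sperm Dpy30 (25.2) and Wdr5 (5.03) again led, Ash2l stood at rank 3 with 4.80 CPM per kilobase, after rank 5 in WT (3.09), and Kmt2c was lowest at 1.42. Of the 9 neighbouring pairs, 6 overlapped in WT and 7 in KO sperm, so most of the order below Wdr5 was not separated by the spread. Sperm and testis tables were normalized separately and differ in the entries they hold, so only ranks within a tissue are set side by side: Dpy30 had rank 1 in WT sperm and rank 4 in WT testes. The length matters to these ranks. With the longest transcript in place of all exons, Ash2l stood at 46.2 CPM per kilobase in WT testes, above Setd1a (34.6), and at 27.3 in cKO testes, above Kmt2b (24.7). In sperm it stood at 7.50 in WT and at 11.6 in KO, the latter above Wdr5 (6.25), and the lowest member of KO sperm was Kmt2a (1.67) in place of Kmt2c (1.92). The fold changes do not depend on length.

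**Figure D4:**
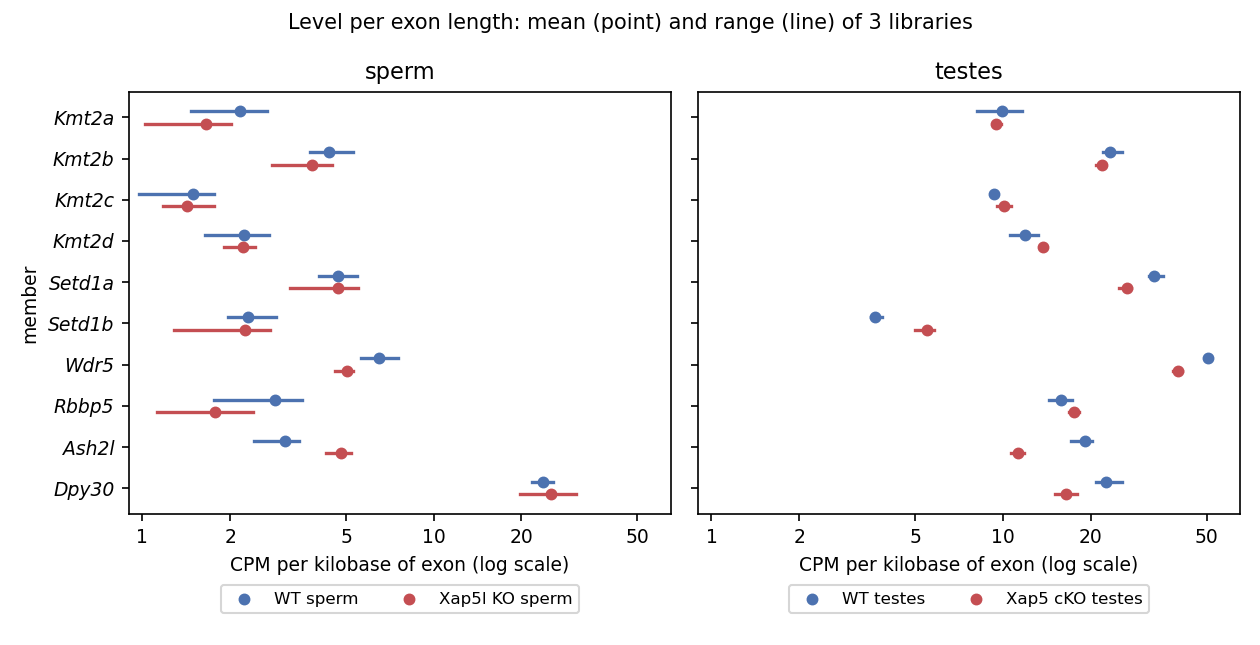
CPM per kilobase of exon (horizontal log axis) of each member in sperm and testes, with points at the mean of 3 libraries and lines over their range. Wdr5 led in testes (50.7 in WT) and Dpy30 in sperm (23.8 in WT), and the 2 panels were normalized separately.

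Subunits that belong to only some of the complexes were followed as an added list of 11 genes, and all 11 were tested in both tissues. In Xap5 cKO testes 2 rose, 5 fell and 4 did not pass, against 25.0% and 28.1% of all genes, with a median log2 fold change of -0.24. Psip1, which encodes the chromatin tether LEDGF of the MLL complexes, stood at 504, 524 and 393 CPM in WT and at 172, 186 and 218 CPM in cKO. It was the only gene of the list called at a fold change above 2 (log2 fold change -1.30, adjusted p = 4.14e-05 from edgeR). Of all genes tested, 10.9% were called lower and 15.1% in either direction. Men1, encoding menin of the same complexes, did not pass (-0.39, adjusted p = 0.139), though it passed with the replicate numbers as a block (adjusted p = 0.0466), with entries of 1 gene summed (0.00202) and without WT replicate 1 (0.00904).

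Cxxc1 and Wdr82, both subunits of the SET1 complexes, went opposite ways. Cxxc1, whose CXXC protein CFP1 binds unmethylated CpG DNA, stood at 154, 156 and 148 CPM in WT testes and at 96.8, 98.1 and 105 CPM in cKO. Wdr82, which links SET1 to RNA polymerase II, stood at 235, 240.1 and 261 CPM in WT and at 372, 355 and 345 CPM in cKO. Neither gene's groups overlapped, with log2 fold changes of -0.61 (adjusted p = 6.74e-05) for Cxxc1 and 0.54 (adjusted p = 0.000102) for Wdr82 from the edgeR test. Bod1l, which binds SETD1B, did not pass (-0.06, adjusted p = 0.562).

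Of the host cell factors, which serve several chromatin complexes, Hcfc2 fell (123, 127 and 114 CPM in WT, 71.2, 68.8 and 78.1 CPM in cKO, log2 fold change -0.74) and Hcfc1 rose (0.21, adjusted p = 0.0431 from edgeR). Among subunits of the KMT2C and KMT2D complexes, Paxip1 (-0.34) and Ncoa6 (-0.24) fell, while Kdm6a, the H3K27 demethylase, and Pagr1a did not pass (0.13 and -0.19). The calls of Hcfc1 and Ncoa6 were lost in 5 and 7 of the alternatives, where their adjusted p reached 0.157 and 0.136.

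In sperm none of the 11 passed between Xap5l KO and WT by edgeR, with 1 higher and 2 lower at an unadjusted p under 0.05, against the 33.5% of all genes given above. Hcfc2 stood at 33.3, 29.2 and 26.1 CPM in WT and at 49.2, 48.0 and 39.7 CPM in KO, without overlap (log2 fold change 0.63, adjusted p = 0.0661). Kdm6a stood at 10.6, 14.0 and 14.2 CPM in WT and at 5.48, 7.89 and 9.54 CPM in KO, also without overlap (-0.76, adjusted p = 0.0728). Both passed without Xap5l KO replicate 3 (adjusted p = 0.0237 and 0.0393 from edgeR). Pagr1a was near the limit of counting, at 26, 11 and 14 counts in WT and 66, 10 and 2 in KO. It shares 98.7% of its exonic bases with Gm42742 on the same strand, which has an entry of its own in the sperm table, so the counts of Pagr1a are uncertain.

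The remaining genes of H3K4 methylation were counted by list in Xap5 cKO testes. Of 5 methyltransferases outside the complexes 2 rose and 1 fell, namely Prdm9, at 52.3, 49.5 and 43.8 CPM in WT and 20.3, 21.2 and 19.1 CPM in cKO (log2 fold change -1.27, adjusted p = 2.66e-05 from edgeR). Prdm9 is also one of the leptotene and zygotene markers given above. Of 6 demethylases, which remove the mark, 2 rose and 3 fell, and none was called at a fold change above 2. Of 10 proteins that read methylated H3K4, 7 rose and 2 fell, with a median log2 fold change of 0.28, and the member called at a fold change above 2 was Zcwpw1, a reader of marks laid down by PRDM9 (169, 172 and 155 CPM in WT, 70.2, 78.9 and 64.4 CPM in cKO, -1.21). Of 17 methyltransferases of other histone lysines, 1 rose and 6 fell, with Setdb2 called (-1.10, adjusted p = 0.000141 from edgeR). These counts stand against the 25.0% of all genes that rose and the 28.1% that fell. The calls at a fold change above 2 stand against the 10.9% of all genes called lower and the 15.1% called in either direction. In sperm 1 gene of these 4 lists passed, against 12.1% of all genes tested. It was Ezh2 of the H3K27 methyltransferase complex, named after its values were seen (log2 fold change 0.88, adjusted p = 0.0348 from edgeR). The call was lost in 8 of the alternatives, among them an adjusted p under 0.01, which no gene in sperm met.

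**Figure D5:**
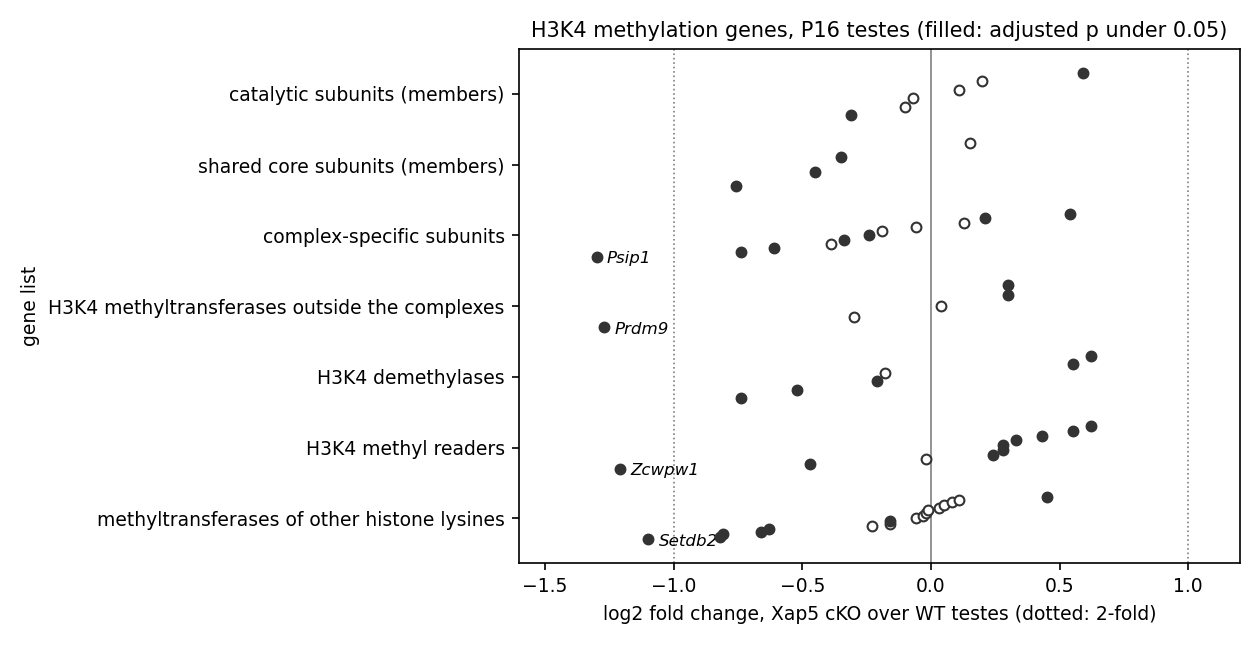
Log2 fold change in Xap5 cKO against WT testes (horizontal axis) of the members in their 2 roles and of 5 further gene lists, with a point per gene, filled where the adjusted p was under 0.05 and named where the change was also above 2-fold. The named genes Psip1, Prdm9, Zcwpw1 and Setdb2 all lie to the left, at -1.30 to -1.10.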

How the data were processed

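Poly(A) RNA of 12 libraries was sequenced by the authors as paired-end reads of 150 bp. The labels' processing notes name FastQC 0.11.2, Trimmomatic 0.36, HISAT2 2.1.0 and DESeq2 1.12.4 with GRCm38, and the methods name StringTie. What the authors deposited are raw counts of reads by gene symbol, not normalized, in a table for each tissue. The counting tool, the treatment of reads that map to several genes and the use of strand are not given in the sources used here, and the library kit named does not mark strand.

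Groups were taken from the labels. Low counts were removed from each table by filterByExpr, TMM factors were computed, and the table was fitted whole with genotype as the only term (edgeR 4.0.16 quasi-likelihood test, Benjamini-Hochberg adjustment over all genes tested, R 4.3.3). A gene passed at an adjusted p under 0.05 and was called at a fold change above 2 as well. Standard errors and 95% intervals belong to the log2 fold changes. Each p-value sets the difference between genotypes against the spread between libraries within the groups, estimated with information from all genes. With 3 against 3, an exact permutation test cannot go below 0.1. The test was also run on simulated counts with planted changes above 2-fold. That run does not show how well smaller changes, such as those of the members, are found.

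Members and lists were chosen with earlier results of these data known. Named are all members, all complex-specific subunits, Prdm9, called genes of the other lists (at most 4 per list), Fam50a, Fam50b and the most abundant gene of a marker list described. Alternatives were no filter, at least 10 counts in every library, RLE and upper-quartile factors, library size alone, DESeq2 1.42.0, a replicate block, an adjusted p under 0.01, entries of 1 gene summed, each library left out, and the longest transcript as length. After seeing the data, leaving out both sperm libraries numbered 1 and adding an upper-case SETD1A entry to Setd1a were added. Positions and exon overlaps came from the GRCm38 annotation, promoter sequences from RefSeq (GRCm38.p6).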

Additional observations from a re-analysis of the deposited data

How the results depend on the processing

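For the members, 139 of 150 recomputed fold changes in testes and 140 of 170 in sperm kept their direction and their side of the threshold. In testes, 2 members rose with RLE factors, DESeq2 or entries of 1 gene summed, and 3 with upper-quartile factors, in place of 1, and between 1 and 3 with 1 library left out. Kmt2d passed in 5 of these settings, Kmt2c with upper-quartile factors and Rbbp5 without WT replicate 3, while Dpy30 lost its call at an adjusted p under 0.01 and without Xap5 cKO replicate 1. In sperm, 1 member rose with DESeq2, and 0 to 1 with 1 library left out. No member was called at a fold change above 2 in any setting.

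Fold changes near 0 changed sign. In testes, Kmt2a was at 0.01 and Bod1l at 0.03 with upper-quartile factors, and they ran from -0.19 to 0.06 and from -0.11 to 0.02 with 1 library left out. In sperm, Kmt2d was at 0.04 without a filter, with RLE factors and with DESeq2, at 0.05 with upper-quartile factors and at 0.01 with at least 10 counts or a replicate block (-0.20 to 0.14 with 1 library left out). Setd1a was at -0.03 with library size alone, -0.02 with a replicate block, -0.14 without both libraries numbered 1 and -0.04 with the SETD1A entry added (-0.13 to 0.29). Setd1b was at 0.02 without a filter, with RLE or upper-quartile factors and with DESeq2 (-0.21 to 0.32). Pagr1a was at -0.34 with a replicate block and -1.30 without both libraries numbered 1 (-2.03 to 1.25). Kmt2c ran from -0.32 to 0.05 and Dpy30 from -0.09 to 0.23 with 1 library left out. The causes were not tested.

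For the 49 related genes in sperm, 1 passed higher, against 2 without a filter or with at least 10 counts, 4 with DESeq2, and 0 with a replicate block, at an adjusted p under 0.01 or without both libraries numbered 1 (0 to 4 with 1 library left out, the most without Xap5l KO replicate 3). Lower, 0 passed, against 1 with DESeq2 (0 to 4 with 1 library left out, the most without WT replicate 1). Called were 0, against 1 without a filter, with at least 10 counts, with library size alone or with DESeq2 (0 to 2, the most without WT replicate 1 or Xap5l KO replicate 3). The count at an adjusted p under 0.01 in sperm carries no information, since the smallest adjusted p of any sperm gene was 0.0118 from edgeR. In testes 14 passed higher, against 8 at an adjusted p under 0.01 and 9 to 13 with 1 library left out.

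Fam50b in sperm stayed at -5.15 with an adjusted p of 0.0118 from edgeR, over 0.01, and at -5.05 without both libraries numbered 1 (adjusted p = 0.0572), and ran from -5.47 to -4.66 with 1 library left out. Fam50a in testes lost its call at -0.33 without a filter, with RLE factors, with library size alone, with a replicate block and at an adjusted p under 0.01, and at -0.25 with upper-quartile factors, and ran from -0.41 to -0.25 with 1 library left out, of which every fit but that without WT replicate 2 lost the call. With the longest transcript as length, the highest level per kilobase was 21.9 times the lowest in Xap5l KO sperm (15.3 to 20.3 with 1 library left out and all exons) and 12.7 times in WT testes, and 23 of 40 levels moved by over 1 SD. Without a filter the median of all genes in sperm moved by 0.21 and without both libraries numbered 1 by 0.15 on the log2 scale.

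Whether the replicate numbers paired the samples was not decided by these data. Deviations of same-numbered libraries correlated at 0.15, -0.02 and -0.08 across genes in sperm and at 0.01, -0.01 and -0.01 in testes. In sperm, WT replicate 2 with Xap5l KO replicate 3 reached 0.14, and WT replicate 3 with Xap5l KO replicate 2 reached 0.18. The other differently numbered sperm pairs were negative. The sperm pair at 0.15 held the libraries with the low TMM factors given above. Deviations from a mean of 3 libraries are tied to each other, so these correlations cannot tell whether same-numbered libraries were paired. The replicate block changed the call of no member. With 3 libraries a group, small changes in sperm were not resolved (biological coefficient of variation 0.287, against 0.174 in testes).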

Other observations

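The sperm table also held an entry spelled SETD1A in capitals, for which no gene of that spelling was found in the annotation used. It had 318 counts in WT replicate 3 and 230 in Xap5l KO replicate 2 and 0 in the other 4 sperm libraries.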
